A study of Mus musculus with 8 samples.

Results

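The genes described here encode the main partners of the corepressor KAP1 in heterochromatin formation, together with further methyltransferases of histone H3 lysine 9 (H3K9). They were listed by name and found through their Ensembl identifiers: Setdb1, Atf7ip, Cbx1, Cbx3, Cbx5, Chd3, Chd4, Ehmt1, Ehmt2 and Suv39h1. All 10 were present among the 21915 genes of the count table. PolyA RNA of the mouse hepatoma line Hepa 1-6 was compared with and without knockdown of Kap1, to ask how transcription responds to KAP1 depletion. The 2 control samples carried a control shRNA plasmid, which the study's methods describe as an empty vector. The 2 Kap1 KD samples carried an shRNA against Kap1, the gene annotated as Trim28 in the mouse. All 4 samples came from the same line, cultured in DMEM with fetal calf serum, and were collected 5 days after transduction. An shRNA lowers a transcript and does not remove the gene. One sample of each group is numbered 2 in its title, and the other was taken as replicate 1. The labels do not say what the number marks, nor whether the samples were separate cultures, so p-values measure only the spread between these samples. The summed counts were 53605115 and 49915004 in control replicates 1 and 2, and 41566888 and 49578846 in Kap1 KD replicates 1 and 2.

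KRAB zinc finger proteins bring KAP1 to many of its sites. Transposable elements and genes of KRAB zinc finger proteins are among its targets, and in hepatocytes KAP1 has also been studied as a regulator of metabolic genes.

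The targeted transcript was measured first. Trim28 (ENSMUSG00000005566) was at 456 and 575 CPM in control replicates 1 and 2, and at 106 and 78.9 CPM in Kap1 KD replicates 1 and 2, where CPM is the count relative to the library size after TMM scaling. Both Kap1 KD samples were far below both control samples, so the labels of the 4 samples matched the transcript that the shRNA targets. The log2 fold change was -2.48 (SE 0.25, 2 samples per group), a Kap1 KD level of 0.179 times the control level. In the edgeR quasi-likelihood test without a replicate term, the adjusted p was 0.9999 after Benjamini-Hochberg adjustment over 14142 tested genes, against an unadjusted edgeR p of 0.00021. In DESeq2 without a replicate term, the adjusted p of Trim28 was 3.08e-11. The smallest p that an exact two-sided permutation test allows for groups of this size is 0.333.

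None of the 10 partner genes passed both thresholds, which were a 1.5-fold change and an adjusted p under 0.05. Over all tested genes the same edgeR test called 0 of 14142 (0%), so the count of 0 of 10 equals the background. On simulated counts, made with the replicate difference of these samples shared by both groups, this fit without a replicate term recovered none of the changed genes, which had been changed by far more than the threshold, so its count of 0 does not show that the partner genes did not change. At an unadjusted p under 0.05, edgeR gave 0 of the 10 genes and 185 of all tested genes (1.31%). DESeq2 without a replicate term called 0 of the 10 and 3 of all tested genes (0.0212%). When 1 library was left out, edgeR called from 3 genes (without Kap1 KD replicate 2) to 65 genes (without Kap1 KD replicate 1), with 21 genes without either control replicate. Trim28 passed both thresholds in each of these 4 fits and none of the 10 partner genes did in any. All 10 passed the low-count filter, with counts between 1663 and 31925 per sample, where counting error alone is between 2.45% and 0.56% of the count.

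Differences between same-numbered samples, on the log2(CPM + 0.1) scale, are given as descriptions. In Kap1 KD against control, 6 of the 10 genes were lower in both replicate pairs, where 38.1% of all tested genes were. Only Ehmt2 was higher in both pairs, where 32.8% of all tested genes were, and the remaining 3 genes differed in opposite directions. Both Kap1 KD samples were below both controls for 1 gene, Ehmt1 (10.6% of all tested genes), and above both controls for none (9.69%). The median log2 fold change of the 10 genes was -0.09, beside -0.02 over all tested genes.

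**Figure D1:**
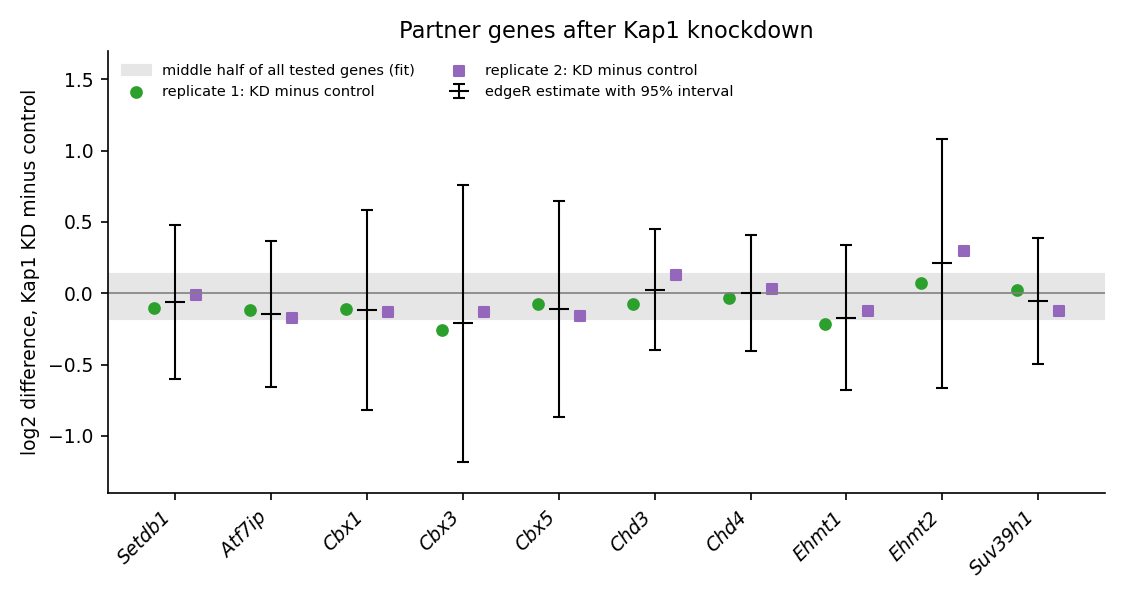
Log2 difference between Kap1 KD and control for the 10 partner genes. Green circles and purple squares are the differences within replicate 1 and replicate 2 on log2(CPM + 0.1), black marks are edgeR estimates with 95% confidence intervals (2 samples per group), and the grey band is the interquartile range of the estimates over 14142 tested genes. Every interval spans 0, and only Ehmt2 has both differences above 0.

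SETDB1 is the H3K9 trimethylase recruited by KAP1, and ATF7IP is the cofactor that stabilises it and keeps it in the nucleus. Setdb1 (ENSMUSG00000015697, chr3:95127447-95161124, minus strand, mm9) was at 66.7 and 54.4 CPM in control replicates 1 and 2, and at 62.1 and 54.0 CPM in Kap1 KD replicates 1 and 2. Replicate 1 was the higher sample in both groups, and the groups overlapped. The difference between Kap1 KD and control was -0.10 in replicate 1 and -0.01 in replicate 2, and the edgeR log2 fold change was -0.06 (95% confidence interval -0.60 to 0.48). Without control replicate 1 or without Kap1 KD replicate 2, it turned to 0.09 and 0.05.

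Atf7ip (ENSMUSG00000030213, chr6:136467372-136555898, plus strand, mm9) was at 70.1 and 61.8 CPM in control replicates 1 and 2, and at 64.6 and 54.7 CPM in Kap1 KD replicates 1 and 2. The order of the samples was that of Setdb1, with Kap1 KD replicate 1 between the controls and Kap1 KD replicate 2 below them. The differences were -0.12 in replicate 1 and -0.18 in replicate 2, with an edgeR log2 fold change of -0.14 (95% confidence interval -0.66 to 0.37). It was between -0.27 (without Kap1 KD replicate 1) and -0.02 (without Kap1 KD replicate 2) when each sample was left out in turn. The annotation names a second, single-exon identifier Atf7ip (ENSMUSG00000053935, chr6:136556350-136559373, plus strand, mm9) directly downstream of the first. It was at 14.1 and 9.33 CPM in control replicates 1 and 2, and at 10.9 and 7.31 CPM in Kap1 KD replicates 1 and 2, with a log2 fold change of -0.36 (95% confidence interval -1.26 to 0.53). With the counts of both identifiers summed, an alternative chosen after seeing the data, the log2 fold change was -0.18.

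The HP1 proteins read H3K9 methylation: Cbx1 encodes HP1 beta, Cbx3 HP1 gamma and Cbx5 HP1 alpha. All 3 genes were lower in Kap1 KD in both pairs, and their replicates differed by more than the groups did. Their promoters are shown with that of Ehmt2, the only gene higher in both pairs, which had the reverse order of the 4 samples; Setdb1 and Atf7ip, whose promoters are not shown, had the order of the HP1 genes. Of the 10 genes, 9 had a promoter in the RefSeq table of GRCm38.p6 (250 bases before to 50 after the transcript start); for Chd3 none was given. Where a gene had more than 1 promoter, the one of the most upstream transcript start is printed. Capitals mark matches on either strand to the CCAAT box, to the GC box and to 2 further motifs. The GC box was searched as GGGCGG. The E-box was searched as CACGTG, and a half-site of the NRF1 motif as TGCGCA. No marked motifs overlap each other in these sequences. The 4 windows, each 5′ to 3′ on the strand of the gene, are chr11:96788885-96789184 (plus strand) for Cbx1, chr6:51470366-51470665 (plus strand) for Cbx3, chr15:103239803-103240102 (minus strand) for Cbx5 and chr17:34898224-34898523 (plus strand) for Ehmt2.
Cbx1 promoter: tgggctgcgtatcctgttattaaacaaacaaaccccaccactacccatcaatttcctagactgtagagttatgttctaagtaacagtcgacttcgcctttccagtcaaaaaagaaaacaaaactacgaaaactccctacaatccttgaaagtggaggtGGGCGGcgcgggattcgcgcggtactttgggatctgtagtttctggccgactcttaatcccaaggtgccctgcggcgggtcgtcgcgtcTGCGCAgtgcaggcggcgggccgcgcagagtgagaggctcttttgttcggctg
Cbx3 promoter: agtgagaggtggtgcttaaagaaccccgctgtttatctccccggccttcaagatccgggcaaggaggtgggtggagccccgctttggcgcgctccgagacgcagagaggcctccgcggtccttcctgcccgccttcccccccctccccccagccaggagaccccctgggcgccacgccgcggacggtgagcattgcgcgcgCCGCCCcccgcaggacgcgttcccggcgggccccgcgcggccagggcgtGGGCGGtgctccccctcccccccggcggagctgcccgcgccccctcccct
Cbx5 promoter: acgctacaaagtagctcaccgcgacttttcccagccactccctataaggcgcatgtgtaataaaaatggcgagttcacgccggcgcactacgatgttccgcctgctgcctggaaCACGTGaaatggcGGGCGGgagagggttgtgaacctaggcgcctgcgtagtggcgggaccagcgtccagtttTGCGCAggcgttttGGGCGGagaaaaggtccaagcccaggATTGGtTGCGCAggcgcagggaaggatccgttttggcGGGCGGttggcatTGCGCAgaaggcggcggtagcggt
Ehmt2 promoter: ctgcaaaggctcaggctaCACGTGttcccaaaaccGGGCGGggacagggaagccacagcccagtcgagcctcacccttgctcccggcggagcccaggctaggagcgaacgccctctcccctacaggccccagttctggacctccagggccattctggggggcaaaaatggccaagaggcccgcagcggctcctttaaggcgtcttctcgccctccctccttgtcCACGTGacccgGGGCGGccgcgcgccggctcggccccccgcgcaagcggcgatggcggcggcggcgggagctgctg

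The GC box was in all 4 promoters shown, 1 time in Cbx1, 2 times in Cbx3 and Ehmt2 and 3 times in Cbx5. Of all 32851 promoters in the table, 35.7% held it. CCAAT, found in 37.4% of all promoters, was among these only in Cbx5, with 1 match, and it was also in promoters of Setdb1, Atf7ip, Chd4 and Suv39h1. The NRF1 half-site, found in 7.76% of all promoters, had 3 matches in Cbx5 and 1 in Cbx1, and it was also in promoters of Ehmt1 and Suv39h1. The E-box, found in 7.15% of all promoters, had 2 matches in Ehmt2 and 1 in Cbx5. ATGGCGG, the core of the YY1 motif, which is not in capitals, was in promoters of Cbx5, Ehmt2 and Suv39h1 (4.05% of all promoters) and overlapped a GC box in that of Cbx5. TATAAA was in none of the 14 promoters of the 9 genes (13.6% of all promoters). The motifs were chosen with these sequences in view, and a match is a match of letters and not a measured binding site. The GC content of the promoters shown was 52.7% in Cbx1, 60.3% in Cbx5, 70.3% in Ehmt2 and 75.3% in Cbx3, beside a median of 52.7% over all promoters.

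Cbx1 (ENSMUSG00000018666, chr11:96650441-96669954, plus strand, mm9) was at 79.5 and 58.2 CPM in control replicates 1 and 2, and at 73.8 and 53.2 CPM in Kap1 KD replicates 1 and 2. Replicate 1 exceeded replicate 2 in both groups, and the groups overlapped. The differences between Kap1 KD and control were -0.11 and -0.13 in replicates 1 and 2, against differences between replicates (2 minus 1) of -0.45 in control and -0.47 in Kap1 KD. The edgeR log2 fold change was -0.12 (95% confidence interval -0.82 to 0.59).

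Cbx5 (ENSMUSG00000009575, chr15:103021975-103070247, minus strand, mm9), the HP1 gene with the most counts, was at 379 and 268 CPM in control replicates 1 and 2, and at 359 and 240 CPM in Kap1 KD replicates 1 and 2. The order of the samples was again that of Cbx1, Setdb1 and Atf7ip. The differences between Kap1 KD and control were -0.08 and -0.16 in replicates 1 and 2, and those between replicates were -0.50 in control and -0.58 in Kap1 KD. The edgeR log2 fold change was -0.11 (95% confidence interval -0.87 to 0.65).

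Cbx3 (ENSMUSG00000029836, chr6:51420359-51433703, plus strand, mm9) was at 101 and 58.2 CPM in control replicates 1 and 2, and at 84.2 and 53.1 CPM in Kap1 KD replicates 1 and 2. Its replicates differed by more than those of any other of the 10 genes in control, by -0.79 (2 minus 1), and by -0.66 in Kap1 KD. The differences between Kap1 KD and control were -0.26 and -0.13 in replicates 1 and 2, and the edgeR log2 fold change was -0.21 (95% confidence interval -1.18 to 0.76). For all 3 HP1 genes the log2 fold change kept its sign under each scaling but turned without control replicate 1, to 0.12 for Cbx1, 0.16 for Cbx5 and 0.24 for Cbx3, and without Kap1 KD replicate 2, to 0.11, 0.16 and 0.10.

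The values of Cbx3 are uncertain because its transcript has near-identical copies elsewhere in the annotation. At least 95% identity over at least 100 bases was found at 6 other loci. Gm6984 (98.9% identity over 1621 bases) and Gm10068 (98.3% over 1624 bases) held 6361 and 3543 counts over the 4 samples, beside 14564 for Cbx3, and the authors kept 1 alignment per read. The counts of all copies came to 68.0% of those of Cbx3. Gm6984 was at 43.1 and 25.1 CPM in control replicates 1 and 2, and at 38.7 and 22.8 CPM in Kap1 KD replicates 1 and 2. Gm10068 was at 24.2 and 14.3 CPM in control replicates 1 and 2, and at 20.1 and 13.5 CPM in Kap1 KD replicates 1 and 2. The order of the samples was the same at the 3 loci. Summed over the 3 loci, the samples were at 168 and 97.7 CPM in control replicates 1 and 2, and at 143 and 89.4 CPM in Kap1 KD replicates 1 and 2, with an edgeR log2 fold change of -0.19 (95% confidence interval -1.16 to 0.77). How the reads of the 3 loci should be divided was not tested, and the level of Cbx3 alone may be understated or overstated by the division.

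**Figure D2:**
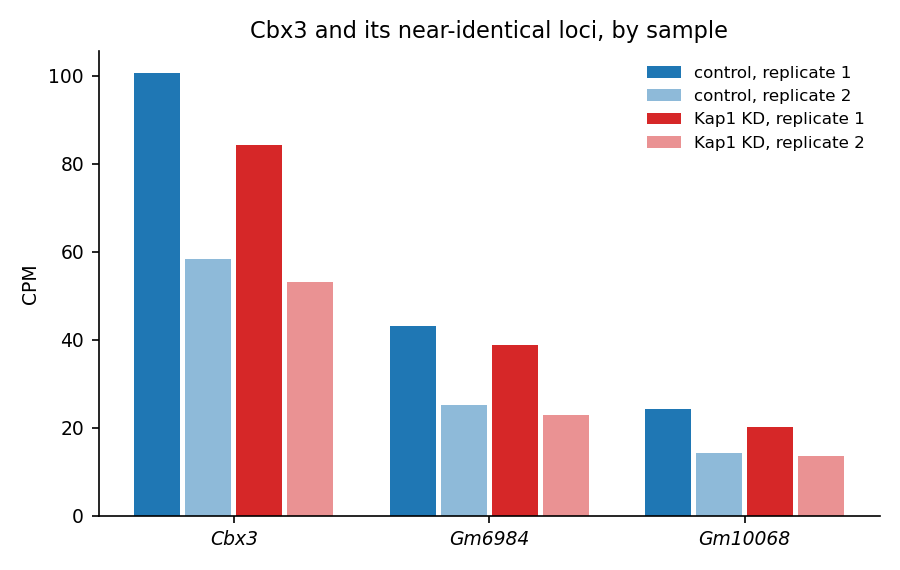
CPM of Cbx3 and of its 2 near-identical loci with most counts, Gm6984 and Gm10068, in each of the 4 samples (bars, 1 sample each, axis from 0). At each locus control replicate 1 is highest, followed by Kap1 KD replicate 1, and Kap1 KD replicate 2 is lowest.

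Chd3 and Chd4 encode the nucleosome-remodelling ATPases of NuRD, a complex that also holds histone deacetylases. CHD3 was among the first proteins found to bind KAP1. Chd4 (ENSMUSG00000063870, chr6:125045999-125080609, plus strand, mm9) was at 573 and 553 CPM in control replicates 1 and 2, and at 561 and 565 CPM in Kap1 KD replicates 1 and 2. Both Kap1 KD samples lay between the controls. The edgeR log2 fold change was 0.00 (95% confidence interval -0.41 to 0.41), the differences in the pairs were -0.03 and 0.03, and the replicates differed by -0.05 in control and 0.01 in Kap1 KD. Chd3 (ENSMUSG00000018474, chr11:69156775-69182928, minus strand, mm9) was at 262 and 235 CPM in control replicates 1 and 2, and at 249 and 256 CPM in Kap1 KD replicates 1 and 2. Again both Kap1 KD samples lay between the controls. The edgeR log2 fold change of Chd3 was 0.03 (95% confidence interval -0.40 to 0.45), with -0.07 in replicate 1 and 0.13 in replicate 2. The sign of both genes turned with scaling to total counts only, to -0.02 for Chd3 and -0.05 for Chd4. The 95% intervals of Chd4 and Chd3 lay within a 1.5-fold change in either direction, as did that of Suv39h1.

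EHMT1 (GLP) and EHMT2 (G9a) form the heteromeric enzyme that monomethylates and dimethylates H3K9 in euchromatin. Ehmt1 (ENSMUSG00000036893, chr2:24646289-24775129, minus strand, mm9) was at 45.3 and 39.1 CPM in control replicates 1 and 2, and at 39.0 and 36.0 CPM in Kap1 KD replicates 1 and 2. It was the one gene of the 10 whose groups did not overlap, although Kap1 KD replicate 1 lay only just below control replicate 2. The differences between Kap1 KD and control were -0.21 and -0.12 in replicates 1 and 2, of the same size as the differences between replicates of -0.21 in control and -0.12 in Kap1 KD. The edgeR log2 fold change was -0.17 (95% confidence interval -0.68 to 0.34), and it was between -0.25 and -0.06 when each sample was left out in turn.

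Ehmt2 (ENSMUSG00000013787, chr17:35035414-35050997, plus strand, mm9) was at 192 and 277 CPM in control replicates 1 and 2, and at 202 and 340 CPM in Kap1 KD replicates 1 and 2. Here replicate 2 was the higher sample in both groups, the order of the 4 samples was the reverse of that of the HP1 genes, and the groups overlapped. The differences between Kap1 KD and control were 0.07 in replicate 1 and 0.30 in replicate 2, and those between replicates were 0.53 in control and 0.75 in Kap1 KD. The edgeR log2 fold change was 0.21 (95% confidence interval -0.66 to 1.08), and it turned to -0.03 without control replicate 1 and to -0.21 without Kap1 KD replicate 2. Ehmt1 and Ehmt2, whose products act together, thus differed between replicates in opposite directions.

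SUV39H1 trimethylates H3K9 mainly in pericentromeric heterochromatin. Suv39h1 (ENSMUSG00000039231, chrX:7638297-7651886, minus strand, mm9) was at 137 and 156 CPM in control replicates 1 and 2, and at 139 and 143 CPM in Kap1 KD replicates 1 and 2. Both Kap1 KD samples lay between the controls. The differences were 0.02 in replicate 1 and -0.13 in replicate 2, and the edgeR log2 fold change was -0.05 (95% confidence interval -0.50 to 0.39), which turned to 0.07 without control replicate 2.

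Near-identical copies of the other genes took few counts. Ehmt2 shares 134 bases (95.5% identity) with D16H22S680E, whose counts were 3.54% of those of Ehmt2, and Setdb1 shares 622 bases (99.4%) with Gm4349, at 1.48%. Exons of Chd3 overlap Gm17305 and those of Suv39h1 overlap Gm14820 on the opposite strand, and these held 3 and 1 counts over the 4 samples. Setdb1 also overlaps Lass2, a gene with more counts than Setdb1, by 64 bases on the opposite strand. Lass2 was at 312 and 291 CPM in control replicates 1 and 2, and at 315 and 294 CPM in Kap1 KD replicates 1 and 2. Whether counting used the strand is not given in the sources used here, so reads in these overlaps cannot be assigned to a strand.

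Levels were compared between genes only after division by the length of merged exons, as CPM per kilobase. In this unit Trim28 had a mean of 75.1 over the 4 samples, from 113 to 142 in control and from 19.5 to 26.2 in Kap1 KD. Chd4 came next with a mean of 70.3 (69.0 to 71.5 over the 4 samples), above 92.3% of all tested genes. The mean levels of the other genes were 46.0 for Ehmt2, 34.6 for Cbx5, 29.6 for Chd3, 27.3 for Suv39h1, 22.9 for Cbx3, 15.5 for Cbx1, 13.9 for Atf7ip, 8.65 for Setdb1 and 5.60 for Ehmt1. Ehmt1, the lowest, was still above 50.1% of all tested genes. Of neighbours in this order among the 10, the ranges of the samples were apart between Chd4 and Ehmt2, between Atf7ip and Setdb1, and between Setdb1 and Ehmt1; the other genes overlapped their next lower neighbour.

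Among enzymes of H3K9 methylation, Ehmt2 and Suv39h1 were thus measured at higher levels per length than Setdb1 and Ehmt1 in every sample. In control cells Trim28 exceeded each of the 10 genes, while in Kap1 KD it was below Chd4, Ehmt2, Cbx5, Chd3 and Suv39h1 in both samples, as the plot of levels by sample shows. The order depends on the length used. Per kilobase of the longest transcript, the levels of Suv39h1, Cbx3 and Cbx1 were over 1.5 times as high (46.1, 39.2 and 27.8), which put Suv39h1 and Cbx3 above Cbx5 (35.4) and Chd3 (34.5).

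**Figure D3:**
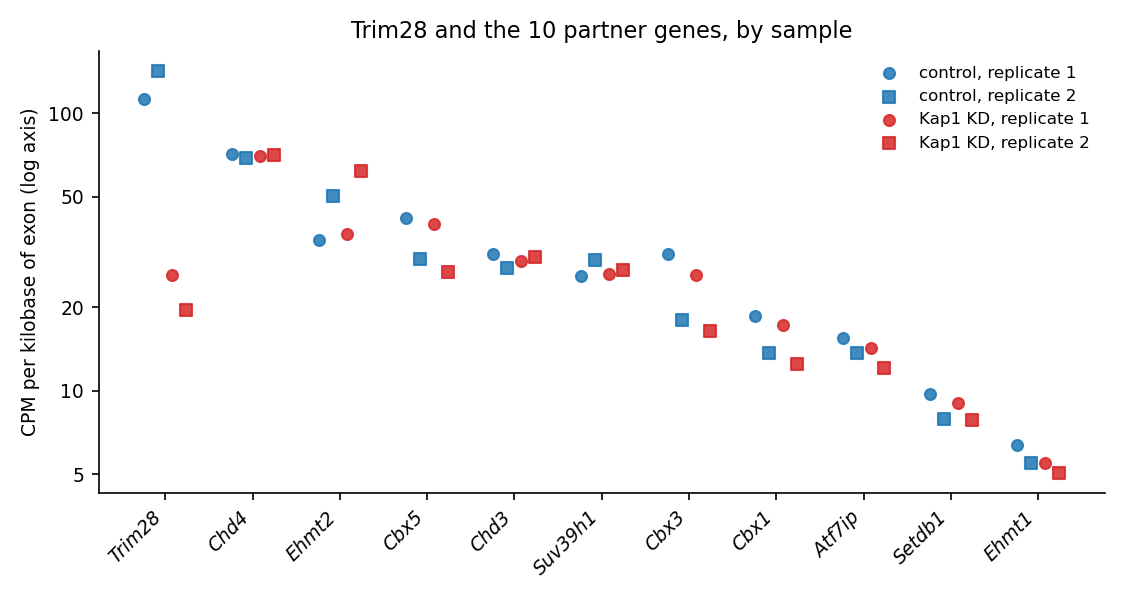
Level of Trim28 and of the 10 partner genes in CPM per kilobase of merged exons, on a log axis, in the 2 control samples (blue) and the 2 Kap1 KD samples (red); circles are replicate 1 and squares replicate 2. Trim28 is separated by group, whereas the partner genes are not, apart from a narrow gap in Ehmt1.

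Differences between replicates were larger than differences between groups for most of these genes. The median absolute difference between replicates was 0.25 in control and 0.22 in Kap1 KD over the 10 genes on the log2 scale, against 0.09 and 0.13 between Kap1 KD and control in replicates 1 and 2. Over all tested genes it was 0.35 in control, against 0.15 and 0.18 between Kap1 KD and control in replicates 1 and 2. For 6 of the 10, Setdb1, Atf7ip, Cbx1, Cbx3, Cbx5 and Ehmt2, both differences between replicates exceeded both differences between groups, which was so for 53.9% of all tested genes.

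The difference between replicates followed the GC content of the exons. Across 14118 tested genes with annotated exons, Spearman's rho between GC content and the replicate difference (2 minus 1, mean of the groups) was 0.667. Across the 10 partner genes it was 0.855. These correlations are across genes of the same 4 libraries, which are not independent replicates. Cbx5 and Cbx1 had the lowest GC content of the 10, 43.0% and 43.3%, and lay lower in replicate 2, while Ehmt2 had the highest, 60.3%, and lay higher in replicate 2. Cbx3, Atf7ip, Chd4 and Chd3 lay below the interquartile range of genes of like GC content. The median over all tested genes was 49.8%.

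The difference between Kap1 KD and control followed GC content too, with a rho of 0.315 across the 14118 genes and of 0.673 across the 10. The rho over all genes was 0.208 in replicate 1 and 0.333 in replicate 2. Exon length went with both differences as well, with a rho across the same genes of -0.207 for Kap1 KD against control and of -0.139 for the replicates. The 3 HP1 genes, lower in Kap1 KD in both pairs, had the lowest GC content of the 10, and Ehmt2, higher in both, had the highest.

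**Figure D4:**
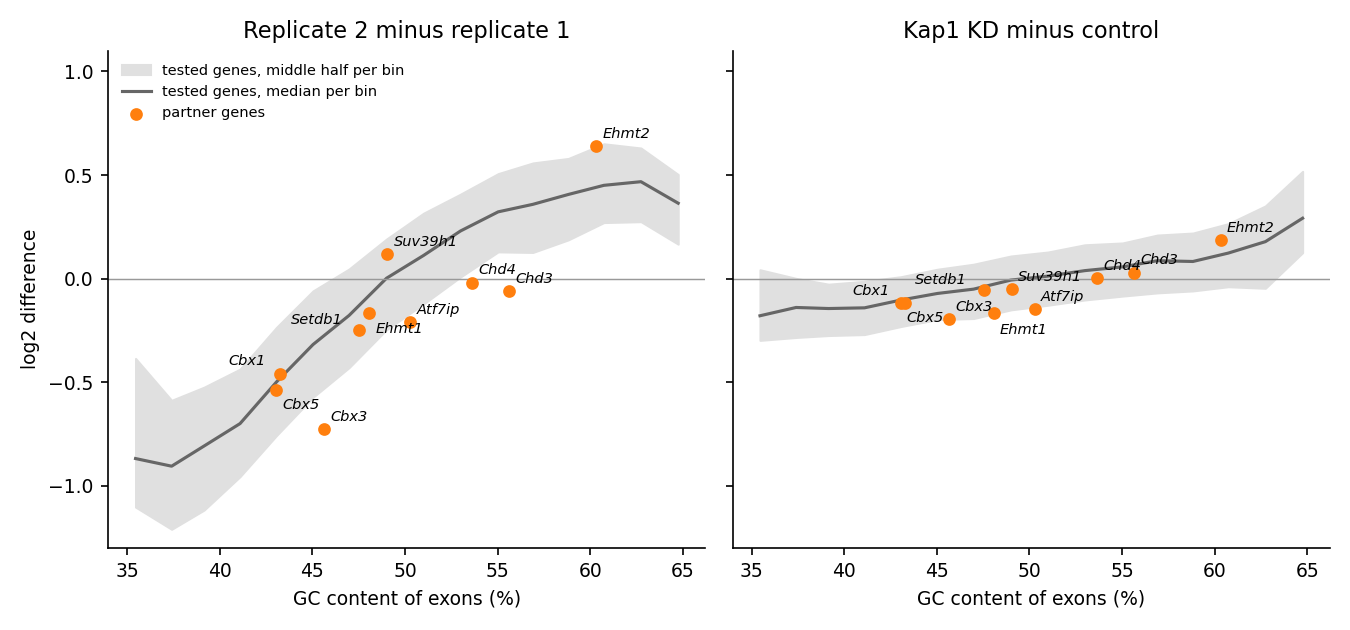
Log2 difference between replicates (left, 2 minus 1, mean of control and Kap1 KD) and between Kap1 KD and control (right, mean of both pairs) against the GC content of exons in percent. Orange points are the 10 partner genes, the line is the median and the grey band the interquartile range of tested genes in bins of GC content with at least 20 genes. Both medians increase with GC content over most of its range, and the HP1 genes have the lowest and Ehmt2 the highest GC content of the 10.

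An edgeR fit with an offset per sample for GC content, chosen after seeing the data, gave values closer to 0 for the HP1 genes and Ehmt2. The offset takes out any trend of a sample with GC content, also one between Kap1 KD and control. Genes whose difference follows that trend are therefore moved closer to 0 by the fit itself. What lay behind the trend was not tested. The log2 fold change went from -0.12 to -0.01 for Cbx1, from -0.11 to -0.002 for Cbx5, from -0.21 to -0.13 for Cbx3 and from 0.21 to 0.06 for Ehmt2. It stayed at -0.14 for Atf7ip and went from -0.17 to -0.14 for Ehmt1, and it turned to -0.04 for both Chd3 and Chd4. That of Trim28 was -2.51. With the offset, 5 of the 10 genes were lower in both pairs (33.8% of all tested genes), 1 was higher in both (36.0%), and 4 differed in opposite directions. Setdb1 and Cbx5 were no longer lower in both pairs, with -0.08 and 0.05 for Setdb1 and 0.03 and -0.03 for Cbx5 in replicates 1 and 2, whereas Chd4 now was, with -0.05 and -0.02. The difference between control replicates widened for Chd3, from -0.16 to -0.45, and for Chd4, from -0.05 to -0.29. It widened by less for Atf7ip and Suv39h1. For the other partner genes it narrowed, as for Cbx1, from -0.45 to 0.04, Cbx5, from -0.50 to 0.01, and Ehmt2, from 0.53 to 0.23. The median absolute difference between control replicates went from 0.25 to 0.21 over the 10 genes. Over all tested genes this median went from 0.35 to 0.24. The fit called none of the 10 and none of all tested genes, with 496 genes at an unadjusted p under 0.05. On the simulated counts it recovered most of the changed genes, but in the measured counts it did not call Trim28 either.

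Related genes of the pathway were read in the same edgeR fit, with values given for the highest and the lowest of each list. In this fit without a replicate term, none of the genes tested in these 5 lists passed both thresholds or had an unadjusted p under 0.05. DESeq2 without a replicate term called none either. Over all tested genes the shares in the same order were 0%, 1.31% and 0.0212%, so the lists lay near the background. Beside the counts of each list stand 32.8% higher and 38.1% lower in both pairs, and a median log2 fold change of -0.02, over all tested genes. Of 13 further NuRD subunits, all tested, 5 were higher and 4 lower in both pairs, with a median log2 fold change of -0.01. They ran from Mta3 at 0.32 (SE 0.28; 0.03 to 0.56 with each sample left out in turn) to Chd5 at -0.62 (SE 0.42), whose counts were only 25 and 19 in control and 13 and 11 in Kap1 KD. Of 7 tested H3K9 methyltransferases and partners outside the main list, 1 was higher and 4 were lower in both pairs, with a median of -0.10. Cdyl2, with 12 to 18 counts per sample, was at 0.50 (SE 0.48). Suv39h2, the paralogue of Suv39h1, was at 11.3 and 6.23 CPM in control replicates 1 and 2, and at 8.59 and 4.94 CPM in Kap1 KD replicates 1 and 2, with a log2 fold change of -0.38 (SE 0.44). The groups overlapped. Atf7ip2 was not analysed here.

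The HUSH complex binds H3K9me3 and works with SETDB1 and MORC2. Of its 4 listed genes, none was higher and 1 was lower in both pairs, with a median of -0.14, from Morc2a at 0.04 (SE 0.16; -0.003 with total counts only) to Mphosph8 at -0.27 (SE 0.53). H3K9 demethylases remove the mark: of 10 tested, 1 was higher and 6 were lower in both pairs, with a median of -0.07. Phf8 had the highest value, 0.05 (SE 0.19). Kdm7a had the lowest, -0.79 (SE 0.55), with 10.2 and 4.53 CPM in control replicates 1 and 2, and 5.70 and 2.84 CPM in Kap1 KD replicates 1 and 2. Its control replicate 2 lay below its Kap1 KD replicate 1, so that the groups overlapped, and with each sample left out in turn its log2 fold change was between -1.37 (without Kap1 KD replicate 1) and -0.09 (without control replicate 1). Kdm1a, a demethylase that KAP1 complexes can hold, was at 78.8 and 86.2 CPM in control replicates 1 and 2, and at 80.2 and 86.3 CPM in Kap1 KD replicates 1 and 2; it lies outside the naming rule and was chosen after its values were seen. Kdm4d had 2 counts at most and was not tested. Of 12 genes of DNA methylation and heterochromatin maintenance, 4 were higher and 5 lower in both pairs, with a median of -0.09, from Daxx at 0.14 (SE 0.26) to Hells at -0.37 (SE 0.53).

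**Figure D5:**
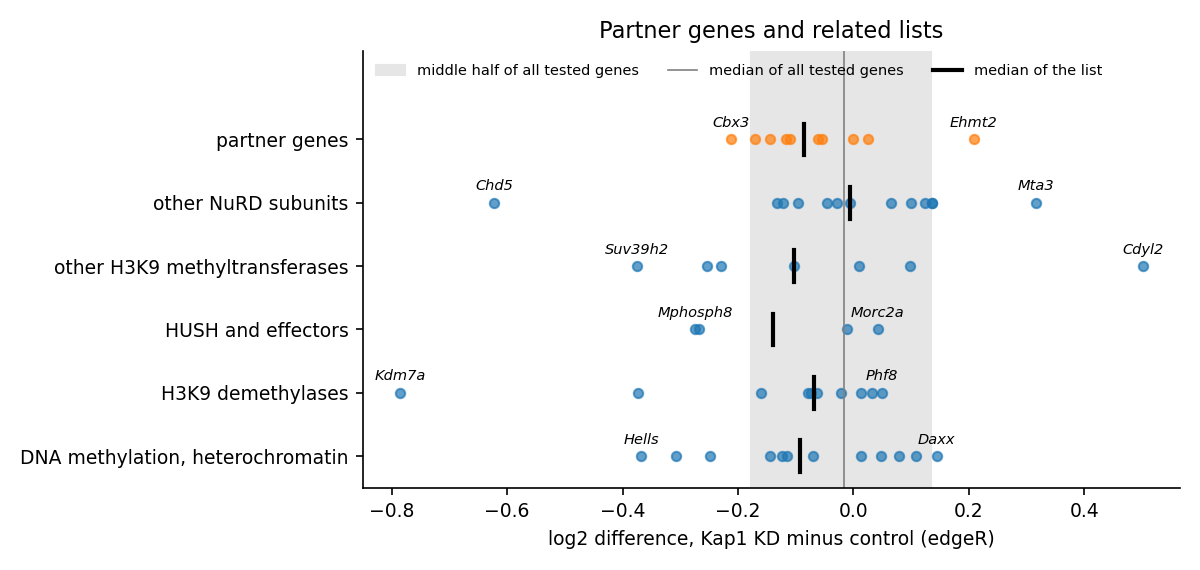
Log2 fold change between Kap1 KD and control from edgeR for each tested gene (points) of the 10 partner genes and of 5 related lists. Black bars are medians of the lists, and the grey line and band are the median and interquartile range of 14142 tested genes. The highest and lowest gene of each list are named, and the medians of the lists lie between -0.14 and -0.01.

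Markers were read as a check of the labelled cell type. Of 9 hepatocyte genes, Alb was the most abundant, at 1580 and 1037 CPM in control replicates 1 and 2, and at 975 and 441 CPM in Kap1 KD replicates 1 and 2. Both Kap1 KD samples were below both controls, and all 7 tested hepatocyte genes were lower in Kap1 KD in both pairs (38.1% of all tested genes), with a median log2 fold change of -0.46. Of these 7, edgeR and DESeq2 without a replicate term called 0, with 2 at an unadjusted edgeR p under 0.05 (1.31% of all tested genes). The 2 were Apob and Apoa1, and Apoa1 had only 5 to 21 counts per sample. The edgeR log2 fold change of Alb was -0.89 with all samples and -1.57 when Kap1 KD replicate 1 was left out. Its values with other samples left out are not given here. The summed level of the 9 was 2507 and 2146 CPM in control, and 1761 and 1171 CPM in Kap1 KD. Ttr and Serpina1a were too low to be tested, and Ttr had 0 counts in Kap1 KD replicate 1, where 3 counts, or 0.0704 CPM, would be the limit that a count of 0 allows. Of 13 markers of other liver cells, 11 were in the table and 6 were tested, and their summed level was 45.2 and 49.7 CPM in control, and 36.2 and 46.2 CPM in Kap1 KD. None of the 6 was called by edgeR or DESeq2 without a replicate term. Sox9, a bile duct marker, made up most of it, with 37.2 and 40.2 CPM in control and 28.7 and 35.7 CPM in Kap1 KD. Kdr, of endothelium, had 0 counts in both controls and 1 in each Kap1 KD sample, and Hbb-b1, of red cells, had 0 in all samples but control replicate 2. Clec4f and Lrat were not analysed here. The part of these markers in the values of the partner genes was not tested, and fewer cells of a type and less RNA per cell cannot be told apart in bulk samples.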

How the data were processed

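PolyA RNA of Hepa 1-6 cells was sequenced in 2 control and 2 Kap1 KD samples. The deposited values are unnormalized read counts per Ensembl gene, which the authors made, per the labels, with TopHat2 2.0.11 on mm9 and HTSeq 0.6.1; the study kept 1 alignment per read. Groups followed the genotype labels. Symbols, exon lengths and GC content came from the mm9 annotation, which matched 21806 of 21915 identifiers. Counts were filtered (filterByExpr), scaled by TMM and tested in edgeR 4.0.16 (R 4.3.3, glmQLFit and glmQLFTest, two-sided, no replicate term), with Benjamini-Hochberg adjustment over 14142 genes. On simulated data, made with a replicate difference shared by both groups, the fit without a replicate term recovered none of the changed genes, that with a GC offset recovered most, and that with the term recovered all. DESeq2 1.42.0, other scalings, filters and thresholds, a replicate term, a GC offset (lowess, span 0.3) and each sample left out were alternatives. Copies were found with blastn. The members and lists were chosen with earlier results of these data known. Named were the 10 members, Trim28, the highest and lowest gene of each related list, genes of any list past both thresholds in any fit used, and the most abundant marker and markers at 0 counts. Limits from counts of 0 cover counting error only. The small RNA tables were not used here.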

Additional observations from a re-analysis of the deposited data

How the results depend on the processing

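The count of partner genes called was 0 under every alternative other than the block with no fold threshold, where the adjusted p alone decides. Scaling by DESeq2 size factors or by total counts only, no low-count filter, no fold threshold, and the GC offset without a block left 0 calls over all genes and over the related lists. DESeq2 without a block called 3 of all tested genes, Trim28 at -2.47 among them. Left out in turn, single samples gave 3 to 65 calls over all genes and a Trim28 log2 fold change of -2.71 to -2.28, past both thresholds each time; in these fits the lone sample of a group is assumed to vary like the other group.

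The replicate numbers were also used as a block, although the samples share only a number. Deviations from the group means of same-numbered samples correlated at 0.855 across genes, and the first principal component (79.5%) separated the numbers. With the block, edgeR called 631 of 14142 tested genes (292 higher, 339 lower), with Trim28 at -2.48. In the same fit it called 0 of the 10 partner genes and 1 related gene, Kdm7a at -0.77, of 10 tested demethylases. Of the markers it called Alb at -0.96, Apob at -1.21 and Apoa1 at -1.36 among hepatocyte genes, and Col1a1, a gene of stellate cells or fibroblasts, at 0.72. DESeq2 with the block called Alb and Apob and gave no adjusted p for Apoa1 and Col1a1, and the GC offset with the block Alb, Apob and Apoa1. DESeq2 with the block called 234 of the same 14142 genes, 1 related gene, Kdm7a at -0.75, and Trim28 at -2.48. The GC offset with the block, chosen after seeing the data, called 569 of 14142 genes (266 higher, 303 lower) and 1 related gene, Kdm7a. It put Trim28 at -2.57, Chd3 at -0.0342 and Chd4 at -0.0368. The block with no fold threshold, also chosen after seeing the data, called 3052 genes (1426 higher, 1626 lower), 8 related genes (1 higher, 7 lower), Trim28 at -2.48, and 1 partner gene, Ehmt2, at 0.19 with an edgeR adjusted p of 0.0106. For Ehmt2, DESeq2 with the block gave 0.19 with an adjusted p of 0.176, and edgeR with the GC offset and the block gave 0.0632 with an adjusted p of 0.392, so neither had it under the threshold. Of the 8 related genes, Kdm7a, Mta3 (0.30) and Hells (-0.34) also had an adjusted p under the threshold in DESeq2 with the block, of 0.0226, 0.0413 and 0.0210, and with the GC offset and the block, of 7.57e-05, 0.000336 and 0.0332. In the fit with the GC offset and the block, the log2 fold change was -0.62 for Kdm7a, 0.28 for Mta3 and -0.19 for Hells. The second Atf7ip identifier also had an edgeR adjusted p under the threshold in the block with no fold threshold, at -0.36 with 0.0134, and an adjusted p of 0.239 in DESeq2 with the block. The blocked fits have 1 residual degree of freedom among samples.

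Several signs turned. With total counts only, Chd3 was at -0.0233, Chd4 at -0.0471 and Morc2a at -0.00252. With the GC offset without a block, Chd3 was at -0.0424 and Chd4 at -0.0380. With single samples left out, the range was -0.18 to 0.0920 for Setdb1, -0.37 to 0.12 for Cbx1, -0.58 to 0.24 for Cbx3, -0.43 to 0.16 for Cbx5, -0.0317 to 0.107 for Chd3, -0.00453 to 0.0243 for Chd4, -0.21 to 0.54 for Ehmt2 and -0.15 to 0.0658 for Suv39h1. Among related genes it was -0.83 to 0.12 for Suv39h2, -0.95 to 0.31 for Mphosph8, -0.0814 to 0.37 for Daxx and -0.96 to 0.34 for Hells. Values that kept their sign also moved, from -0.27 to -0.02 for Atf7ip, from -0.82 to -0.44 for Chd5, from 0.11 to 0.83 for Cdyl2, from 0.00887 to 0.11 for Phf8 and from 0.0145 to 0.0804 for Morc2a. Others moved by over 1.5 times with total counts only, to -0.11 for Setdb1, -0.0999 for Suv39h1, 0.00486 for Phf8 and 0.0931 for Daxx, and with the GC offset without a block, to -0.0167 for Setdb1, -0.19 for Hells, -0.15 for Mphosph8, 0.0685 for Daxx, 0.124 for Phf8 and 0.0668 for Morc2a. The cause was not tested. Counts of the partner genes were at least 1663 per sample.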
